A study of Mus musculus with 6 samples.

Results

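The genes described here carry glucose through glycolysis to lactate or to mitochondrial pyruvate, or through the pentose phosphate pathway. The list holds 34 genes in 8 arms. It was drawn up by function, though with earlier results of these data known. Sugar and lactate carriers and the enzymes' main isoforms were kept apart. A gene counted as measured when at least 1 array feature named it and no other gene, and its brightest feature stood for it. That held for 29 of the 34 genes, out of 19818 genes (21542 features) measured this way on the array. Gpi1, Eno1, Mpc2 and G6pdx were named by no feature, and Gapdh only by features that also name other genes, so these 5 are not part of the counts.

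The cells were mature splenic B cells of the mouse, activated in culture and infected with a retrovirus that carried a green fluorescent marker. The retrovirus encoded MYD88 with the L265P substitution, IKK with the K171E substitution, or nothing besides the marker (MYD88_L265P, IKK_K171E and EV, with 2 arrays each). All cells then spent 36 h with mitogen and 24 h without it, the label for that step naming anti-CD40, and marker-positive cells were sorted. MYD88 is the adaptor of Toll-like and interleukin-1 receptors, L265P is a recurrent substitution in human B cell lymphoma, and IKK is the kinase that releases NF-kB from its inhibitors. The labels do not name the IKK subunit, the promoter of the vector or the number of mice behind each culture.

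Values are the deposited log2 signals, with array medians from 8.03 to 8.13. Replicate arrays correlated at 0.995 in MYD88_L265P, 0.992 in IKK_K171E and 0.989 in EV. With 2 arrays in a group, the number of arrays limits the precision, and p-values measure only the spread between arrays labelled as biological replicates. Myd88 had log2 signals of 12.25 and 12.31 in MYD88_L265P, 9.43 and 9.14 in IKK_K171E, and 9.30 and 9.35 in EV. Ikbkb, which encodes a catalytic IKK subunit, had 9.69 and 9.68 in MYD88_L265P, 11.35 and 10.68 in IKK_K171E, and 9.98 and 10.22 in EV. B cell markers averaged 11.62 and 11.65 in MYD88_L265P, 11.80 and 11.86 in IKK_K171E, and 12.17 and 12.14 in EV. Of 7 measured B cell markers, 3 were called lower in MYD88_L265P than in EV and 1 in IKK_K171E. Calls are defined below, and over all features 7.33% were called lower in MYD88_L265P than in EV. In IKK_K171E, 0.413% of all features were called lower than in EV and 0.956% higher. T cell markers averaged 8.12 and 7.98 in MYD88_L265P, 8.63 and 8.53 in IKK_K171E, and 8.43 and 8.50 in EV, with 4 of 7 called lower in MYD88_L265P. Dendritic cell markers averaged 7.73 and 7.65 in MYD88_L265P, 8.33 and 8.26 in IKK_K171E, and 8.07 and 7.97 in EV, with 2 of 6 called lower in MYD88_L265P and 2 higher in IKK_K171E. The monocyte, neutrophil and NK cell lists each had 1 marker called lower in MYD88_L265P, and the erythroid list had 0 calls. The monocyte marker was Adgre1, also called lower in IKK_K171E (log2 -1.17), where Csf1r was called higher (log2 1.22). The median log2 fold change of the 10 monocyte and macrophage markers over EV was -0.11 in MYD88_L265P and 0.50 in IKK_K171E. The part of other cell types in the results below was not tested. The table has no detection p-values, so no gene can be called absent. In bulk samples of this kind, fewer cells of a type and less RNA per cell cannot be told apart.

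Glycolysis splits glucose into pyruvate with a small yield of ATP, and lactate dehydrogenase lets it run on when mitochondria do not take up the pyruvate. The pentose phosphate pathway leaves glycolysis at glucose 6-phosphate and supplies NADPH in its oxidative arm and ribose for nucleotides in its non-oxidative arm. B cells that leave rest raise glucose uptake and both pathways, and Myc and the hypoxia-inducible factor are well-known activators of many of these genes.

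In MYD88_L265P cells, 6 of the 29 measured genes rose relative to EV and 3 fell. The genes that rose were the lactate and pyruvate carrier Slc16a1, the hexokinase Hk2, the glycolytic enzymes Tpi1, Pgk1 and Pgam1, and the pentose phosphate isomerase Rpia. The genes that fell were the glucose carrier Slc2a3, the aldolase Aldoc and the pyruvate dehydrogenase kinase Pdk2. Calls here and below are limma's, at a Benjamini-Hochberg adjusted p under 0.05 over all features, of which 9.32% were called higher and 7.33% lower in this comparison. Both MYD88_L265P arrays lay above both EV arrays for 17 of the 29 genes, against 23.2% of all features, and below them for 7, against 47.9%. The median log2 fold change of the 29 genes was 0.25, with 20 above 0 and 9 below, and that of all features was -0.11.

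In IKK_K171E cells, Rpia was the 1 gene higher than in EV and Aldoc the 1 gene lower, while 0.956% of all features were called higher and 0.413% lower. Both IKK_K171E arrays lay above both EV arrays for 11 of the 29 genes, against 17.6% of all features, and below them for 4, against 28.4%. The median log2 fold change of the 29 genes was 0.12, and that of all features was -0.04. Between MYD88_L265P and IKK_K171E, limma called 0 of the 29 genes higher and 0 lower, where 0.873% and 0.877% of all features were called. At an unadjusted p under 0.05, MYD88_L265P was above IKK_K171E in 4 of the 29 genes, against 8.35% of all features, and below it in 3, against 11.2%. Both MYD88_L265P arrays lay above both IKK_K171E arrays for 7 genes, against 20.9% of all features, and below them for 8, against 36.1%. The comparisons of MYD88_L265P and of IKK_K171E with EV share the EV arrays, so the fold changes given for both are not independent.

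**Figure D1:**
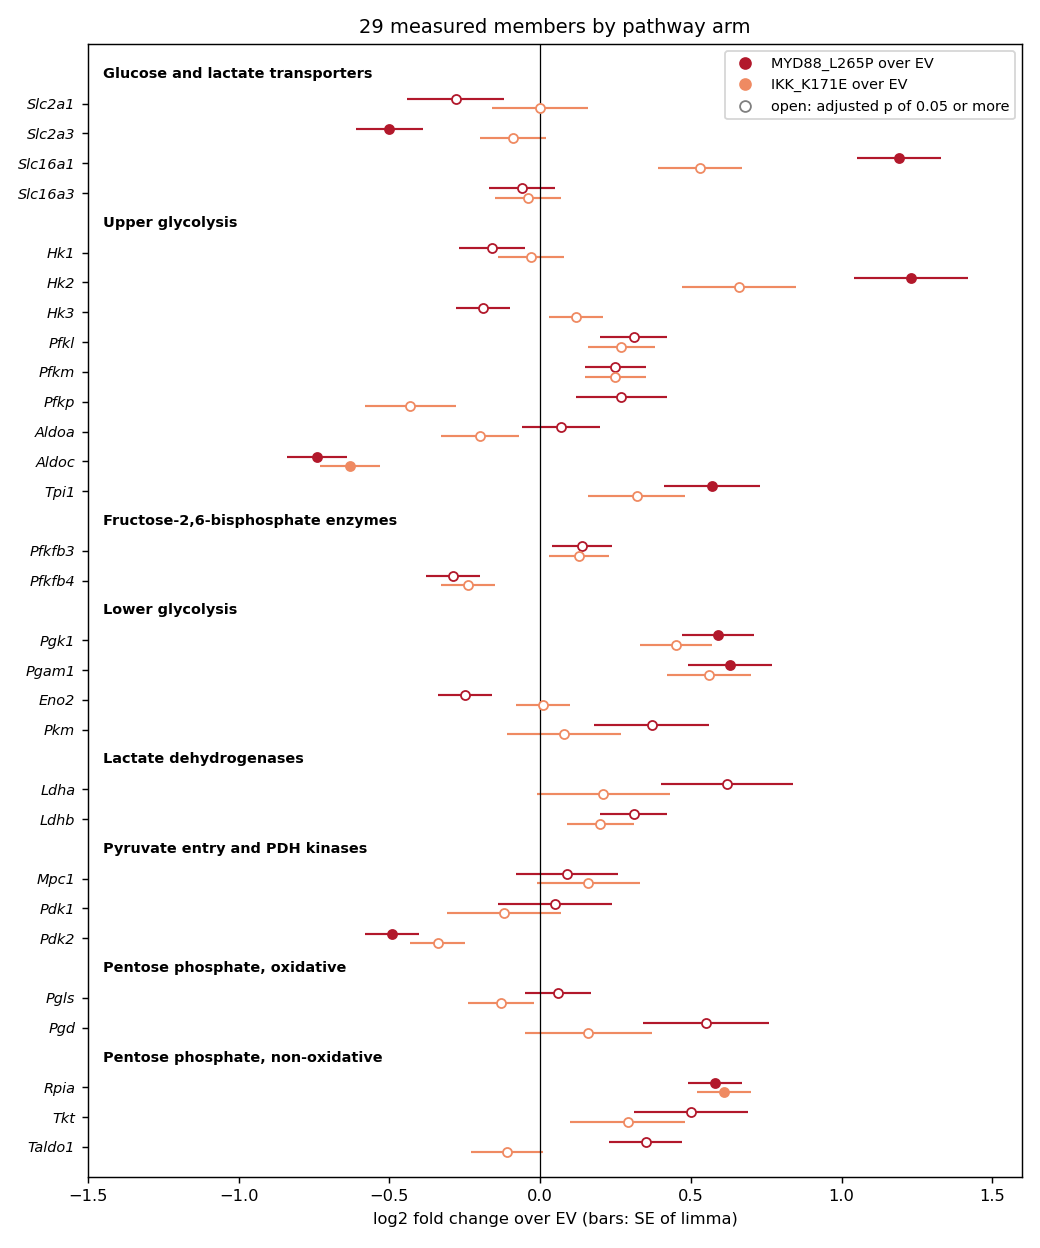
Log2 fold change over EV of the 29 measured genes, grouped by pathway arm, for MYD88_L265P (upper point of each gene) and IKK_K171E (lower point), with bars for limma's standard error. Filled points are called at an adjusted p below 0.05: 9 genes in MYD88_L265P, and Aldoc and Rpia in IKK_K171E.

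The promoters of 4 genes are shown because Hk2 and Slc16a1 had the highest log2 fold changes among the 29 genes in MYD88_L265P over EV, and Rpia and Aldoc were called in both comparisons with EV. The windows are from RefSeq on GRCm38.p6, run 5′ to 3′ on the gene's strand, and cover 250 bases before to 50 bases after the transcription start. Capitals mark matches, on either strand, to CACGTG (the E-box to which Myc binds), to ACGTG and GCGTG (both forms of the hypoxia response core), and to the NF-kB consensus. On the other strand the cores read CACGT and CACGC, and every CACGTG also counts as an ACGTG.
Hk2, chr6:82774405-82774704, strand -: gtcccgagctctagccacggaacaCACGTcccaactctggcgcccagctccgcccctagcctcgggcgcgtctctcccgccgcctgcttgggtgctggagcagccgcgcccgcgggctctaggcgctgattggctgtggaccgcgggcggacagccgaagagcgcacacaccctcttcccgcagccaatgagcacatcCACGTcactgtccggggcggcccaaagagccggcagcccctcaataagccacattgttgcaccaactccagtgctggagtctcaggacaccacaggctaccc
Slc16a1, chr3:104638414-104638713, strand +: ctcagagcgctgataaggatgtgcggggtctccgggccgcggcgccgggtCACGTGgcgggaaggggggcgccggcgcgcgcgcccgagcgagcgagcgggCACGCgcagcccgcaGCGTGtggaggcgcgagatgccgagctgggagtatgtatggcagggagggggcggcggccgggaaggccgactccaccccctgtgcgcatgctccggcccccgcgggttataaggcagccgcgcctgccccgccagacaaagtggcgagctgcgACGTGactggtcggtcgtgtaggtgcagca
Rpia, chr6:70792126-70792425, strand -: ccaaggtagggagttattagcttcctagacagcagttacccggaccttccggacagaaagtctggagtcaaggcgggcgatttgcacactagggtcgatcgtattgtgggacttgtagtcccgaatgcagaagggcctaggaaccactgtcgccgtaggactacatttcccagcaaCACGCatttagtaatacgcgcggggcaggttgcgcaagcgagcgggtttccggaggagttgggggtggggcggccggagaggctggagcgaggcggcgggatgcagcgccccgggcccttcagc
Aldoc, chr11:78322823-78323122, strand +: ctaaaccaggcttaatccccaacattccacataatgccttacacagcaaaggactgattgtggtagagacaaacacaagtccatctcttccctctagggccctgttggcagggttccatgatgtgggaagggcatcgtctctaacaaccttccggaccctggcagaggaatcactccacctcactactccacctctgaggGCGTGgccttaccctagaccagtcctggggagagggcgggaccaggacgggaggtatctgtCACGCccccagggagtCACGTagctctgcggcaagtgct
The Hk2 window held ACGTG at positions -226 and -52 from the start. The Slc16a1 window held CACGTG at -200, a further ACGTG at 21, and GCGTG at -149 and -134. The Rpia window held GCGTG at -74, and the Aldoc window held ACGTG at 28 and GCGTG at -50 and 12. None of the 4 windows held the NF-kB consensus. Aldoc has a further window at a later start in the table, which is not printed.

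Of the 34 genes, 33 had at least 1 such window, 49 in all. ACGTG was in 20 of the 49 windows (40.8%), against 19.6% of all 32851 windows in the table, and GCGTG was in 28 (57.1%), against 32.4%. CACGTG was in 5 (10.2%, against 7.15%), in the windows of Ldha, Pdk2, Pfkfb3, Pfkm and Slc16a1. The NF-kB consensus was in 4 (8.16%, against 8.46%), in those of Hk1, Pdk2, Pfkm and Pgk1. The windows of the listed genes also held more G and C, with a median of 61% of bases against 52.7% over all windows, and its part in these shares was not tested. ACGTG was in the window of Aldoc and Pdk2, which fell, as well as in those of Hk2, Slc16a1, Pgk1 and Pgam1, which rose. A match is a run of letters, not a bound site.

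Among the carriers, the lactate carrier and a glucose carrier moved in opposite directions in MYD88_L265P. Slc16a1 (MCT1) moves lactate and pyruvate with a proton across the plasma membrane. Its log2 signal was 9.47 and 9.39 in MYD88_L265P, 8.96 and 8.59 in IKK_K171E, and 8.35 and 8.14 in EV. The groups did not overlap, with IKK_K171E between the other two. The MYD88_L265P level was 2.28-fold that of EV (log2 1.19, SE 0.14, adjusted p = 0.00568). IKK_K171E over EV gave 0.53 (adjusted p = 0.12) and MYD88_L265P over IKK_K171E 0.66 (adjusted p = 0.0776). Slc2a3 (GLUT3) is a high-affinity glucose carrier. It had 8.28 and 8.08 in MYD88_L265P, 8.67 and 8.52 in IKK_K171E, and 8.61 and 8.76 in EV. The MYD88_L265P arrays lay below the other 4, and the level was 0.706-fold that of EV (log2 -0.50, SE 0.11, adjusted p = 0.0277). In IKK_K171E the log2 difference from EV was -0.09 (adjusted p = 0.738).

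Slc2a1 (GLUT1), the main glucose carrier of activated lymphocytes, had log2 fold changes over EV of -0.28 in MYD88_L265P (SE 0.16, adjusted p = 0.217) and -0.00 in IKK_K171E. Its EV arrays were 9.92 and 10.42, wider apart than either MYD88_L265P (9.92 and 9.86) or IKK_K171E (10.19 and 10.15). Without EV replicate 1 the MYD88_L265P difference from EV was -0.53 (adjusted p = 0.0248), and without EV replicate 2 it was -0.03 (adjusted p = 0.866). Slc16a3 (MCT4), the carrier tied to lactate export in highly glycolytic cells, lay between 8.17 and 8.44 on all 6 arrays. Its difference from EV was -0.06 in MYD88_L265P and -0.04 in IKK_K171E, and neither was called.

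In upper glycolysis, which spends ATP to make triose phosphates, 1 of 3 measured hexokinases rose in MYD88_L265P. Hexokinases trap glucose in the cell by phosphorylating it. Hk2, the inducible form, had log2 signals of 9.61 and 9.54 in MYD88_L265P, 9.31 and 8.69 in IKK_K171E, and 8.43 and 8.25 in EV. No group overlapped another, and the IKK_K171E arrays lay furthest apart. The MYD88_L265P level was 2.35-fold that of EV (log2 1.23, SE 0.19, adjusted p = 0.0103), the highest fold among the 29 genes. In IKK_K171E it was 1.58-fold (log2 0.66, adjusted p = 0.139). Hk1, the constitutive form, differed from EV by -0.16 in MYD88_L265P (adjusted p = 0.295) and -0.03 in IKK_K171E. Hk3, a form found in myeloid cells, differed by -0.19 in MYD88_L265P (adjusted p = 0.158) and 0.12 in IKK_K171E (adjusted p = 0.566). Monocyte and macrophage markers averaged 8.80 and 8.60 in MYD88_L265P, 9.41 and 9.24 in IKK_K171E, and 8.90 and 8.98 in EV, and their part in the Hk3 values was not tested.

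Phosphofructokinase commits sugar to glycolysis, and its 3 isoform genes did not share 1 order of groups. Pfkl and Pfkm, the liver and muscle forms, differed from EV by 0.31 and 0.25 in MYD88_L265P and by 0.27 and 0.25 in IKK_K171E, with adjusted p from 0.0976 to 0.298. Pfkp, the platelet form, had log2 signals of 11.35 and 11.32 in MYD88_L265P, 10.69 and 10.59 in IKK_K171E, and 11.29 and 10.85 in EV. Its 2 IKK_K171E arrays were the lowest of the 6. MYD88_L265P over IKK_K171E gave 0.69 (1.62-fold, adjusted p = 0.073), the lowest adjusted p among the 29 genes in that comparison, while MYD88_L265P over EV gave 0.27 (adjusted p = 0.211) and IKK_K171E over EV -0.43 (adjusted p = 0.197).

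Aldolase splits the hexose and triose phosphate isomerase interconverts the products. Aldoc, the aldolase best known from brain, had log2 signals of 8.32 and 8.18 in MYD88_L265P, 8.35 and 8.39 in IKK_K171E, and 9.09 and 8.90 in EV. All 4 arrays of the transduced mutants lay below both EV arrays. The level was 0.597-fold that of EV in MYD88_L265P (log2 -0.74, SE 0.10, adjusted p = 0.00787) and 0.647-fold in IKK_K171E (log2 -0.63, SE 0.10, adjusted p = 0.0421). MYD88_L265P over IKK_K171E gave -0.11 (adjusted p = 0.535). Aldoa, the broadly expressed aldolase, differed from EV by 0.07 in MYD88_L265P and -0.20 in IKK_K171E, with adjusted p of 0.695 and 0.506. Tpi1 had 10.48 and 10.49 in MYD88_L265P, 10.49 and 10.00 in IKK_K171E, and 9.99 and 9.85 in EV. Its MYD88_L265P arrays lay above both EV arrays (1.48-fold, log2 0.57, SE 0.16, adjusted p = 0.0499), and IKK_K171E over EV gave 0.32 (adjusted p = 0.354). The Tpi1 call had the highest adjusted p of the 9 and was lost when all features of the table were tested (0.0601) and under quantile normalization (0.0721).

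Pfkfb3 and Pfkfb4 make and break down the sugar bisphosphate that activates phosphofructokinase, and neither was called. Pfkfb3 differed from EV by 0.14 in MYD88_L265P and 0.13 in IKK_K171E. Pfkfb4 differed by -0.29 in MYD88_L265P (adjusted p = 0.0714) and -0.24 in IKK_K171E (adjusted p = 0.247).

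**Figure D2:**
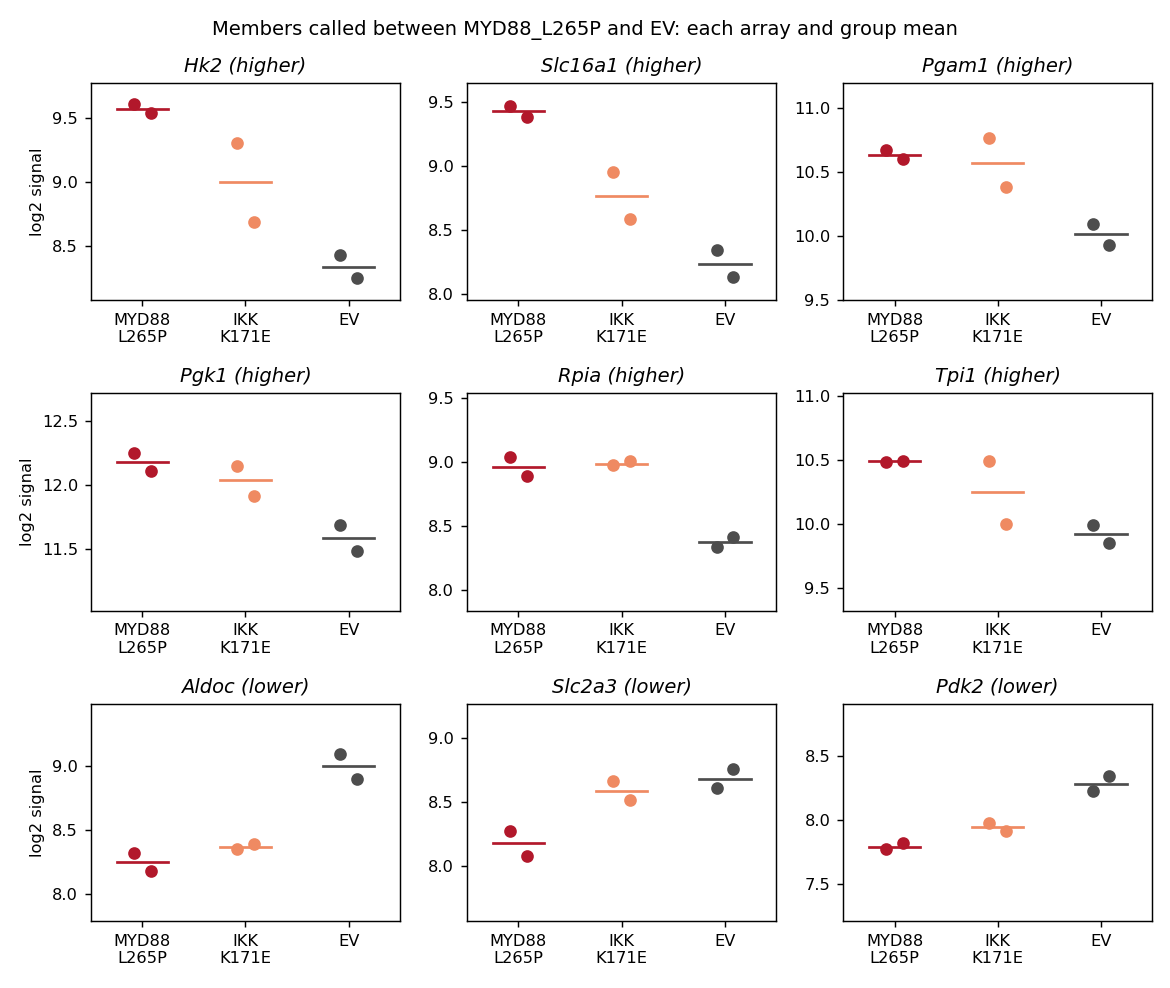
Log2 signal of the 9 genes called between MYD88_L265P and EV, 1 panel per gene, with a point per array and a line at the group mean; each panel has its own level on the vertical axis and the same span. For Rpia and Aldoc the IKK_K171E points sit beside those of MYD88_L265P, and for Slc2a3 beside those of EV.

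In lower glycolysis, which yields ATP and pyruvate, 2 of 4 measured genes rose in MYD88_L265P. Pgk1, the first enzyme of the pathway to make ATP, had log2 signals of 12.25 and 12.11 in MYD88_L265P, 12.15 and 11.92 in IKK_K171E, and 11.69 and 11.49 in EV. Its MYD88_L265P level was 1.5-fold that of EV (log2 0.59, SE 0.12, adjusted p = 0.0215), and IKK_K171E over EV gave 0.45 (adjusted p = 0.121). Pgam1, the mutase that moves the phosphate group, had 10.67 and 10.60 in MYD88_L265P, 10.76 and 10.38 in IKK_K171E, and 10.09 and 9.93 in EV. For both genes, all arrays of MYD88_L265P and IKK_K171E lay above both EV arrays. Pgam1 was 1.54-fold higher in MYD88_L265P than in EV (log2 0.63, SE 0.14, adjusted p = 0.0275), and IKK_K171E over EV gave 0.56 (adjusted p = 0.104). Each of these genes had 3 features, of which 2 carry identical values, and the remaining feature was also called (log2 0.58, adjusted p = 0.022 for Pgk1 and log2 0.61, adjusted p = 0.047 for Pgam1). Eno2, the neuronal enolase, differed from EV by -0.25 in MYD88_L265P (adjusted p = 0.1) and 0.01 in IKK_K171E. Pkm, which makes pyruvate, differed by 0.37 in MYD88_L265P (SE 0.19, adjusted p = 0.197) and 0.08 in IKK_K171E; the features do not separate its splice forms.

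The lactate dehydrogenase genes were not called in any comparison. Ldha, which favours the making of lactate, had log2 signals of 11.90 and 11.90 in MYD88_L265P, 11.87 and 11.10 in IKK_K171E, and 11.31 and 11.25 in EV. Both MYD88_L265P arrays lay above both EV arrays, while the IKK_K171E arrays lay 0.77 apart, on either side of EV. MYD88_L265P over EV gave 1.53-fold (log2 0.62, SE 0.22, adjusted p = 0.0884). In a fit of only the MYD88_L265P and EV arrays the SE was 0.08 and the adjusted p 0.011, and Pkm (adjusted p = 0.038) and Tkt (adjusted p = 0.019) were called there too. Ldhb, the form that favours pyruvate, differed from EV by 0.31 in MYD88_L265P (adjusted p = 0.0911) and 0.20 in IKK_K171E (adjusted p = 0.435). Its less bright feature differed by 0.17 (adjusted p = 0.334) and 0.08 (adjusted p = 0.809). Under quantile normalization the brighter Ldhb feature differed from EV by 0.44 in MYD88_L265P and was called by limma (adjusted p = 0.0451).

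Pyruvate enters mitochondria through the carrier built from Mpc1 and Mpc2 and is oxidised by pyruvate dehydrogenase, which the Pdk kinases switch off. Pdk2 had log2 signals of 7.77 and 7.82 in MYD88_L265P, 7.97 and 7.91 in IKK_K171E, and 8.22 and 8.34 in EV. The 3 groups did not overlap. The MYD88_L265P level was 0.713-fold that of EV (log2 -0.49, SE 0.09, adjusted p = 0.0166), and IKK_K171E over EV gave -0.34 (adjusted p = 0.118). Pdk1, the kinase known for its induction by hypoxia, differed from EV by 0.05 in MYD88_L265P (adjusted p = 0.863) and -0.12 in IKK_K171E, with EV arrays of 9.35 and 8.75. Mpc1 differed from EV by 0.09 in MYD88_L265P and 0.16 in IKK_K171E, and neither was called.

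In the oxidative arm of the pentose phosphate pathway, neither measured gene was called. Pgls, the lactonase, differed from EV by 0.06 in MYD88_L265P and -0.13 in IKK_K171E. Pgd, which makes NADPH and ribulose phosphate, differed by 0.55 in MYD88_L265P (SE 0.21, adjusted p = 0.105) and 0.16 in IKK_K171E. Its MYD88_L265P arrays were 10.06 and 10.48, the widest gap between MYD88_L265P arrays among the 29 genes.

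In the non-oxidative arm, Rpia was higher than in EV in both MYD88_L265P and IKK_K171E. Rpia turns ribulose phosphate into the ribose phosphate used for nucleotides. It had log2 signals of 9.04 and 8.89 in MYD88_L265P, 8.98 and 9.01 in IKK_K171E, and 8.34 and 8.42 in EV. The MYD88_L265P and IKK_K171E arrays overlapped each other, and all 4 lay above both EV arrays. The level was 1.5-fold that of EV in MYD88_L265P (log2 0.58, SE 0.09, adjusted p = 0.0115) and 1.53-fold in IKK_K171E (log2 0.61, SE 0.09, adjusted p = 0.0383). MYD88_L265P over IKK_K171E gave -0.03 (adjusted p = 0.878). Tkt and Taldo1 link pentoses back to glycolysis. They differed from EV by 0.50 and 0.35 in MYD88_L265P (adjusted p = 0.101 and 0.0754) and by 0.29 and -0.11 in IKK_K171E, with no call. After the arrays were shifted to a common median, Taldo1 differed from EV by 0.44 in MYD88_L265P and was called by limma (adjusted p = 0.0479).

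**Figure D3:**
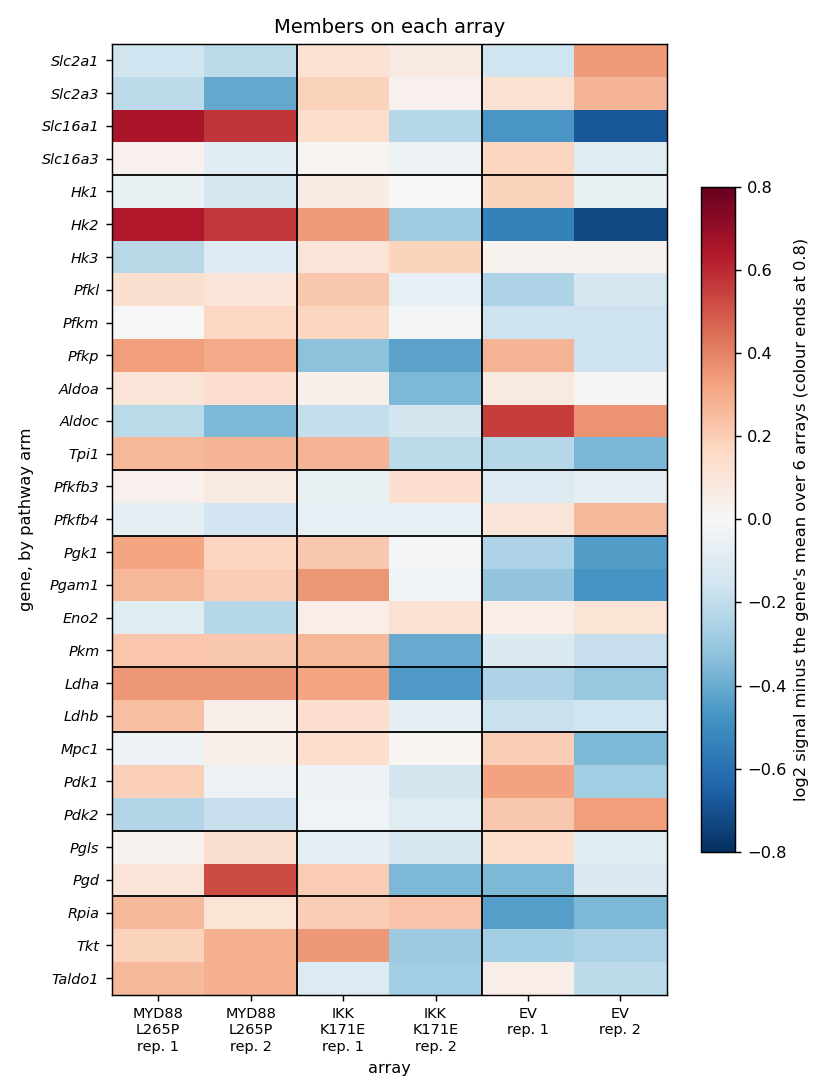
Log2 signal of each of the 29 genes on each array minus that gene's mean over the 6 arrays, with colour from lower (blue) to higher (red) and black lines between groups and pathway arms. Hk2 and Slc16a1 are highest on both MYD88_L265P arrays and lowest on both EV arrays, and the IKK_K171E arrays differ from each other for Ldha, Pkm and Tkt.

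Where 1 array was left out, the remaining array of its group was assumed to vary like the other groups, and the counts of calls moved over the whole array. Without MYD88_L265P replicate 2, limma called 0 of the 29 genes against EV in either direction (7 higher and 3 lower at an unadjusted p under 0.05), and 142 features higher and 49 lower in all, against 2007 and 1579 with all arrays. The fold changes stayed near their values from all arrays, with log2 1.27 for Hk2, 1.23 for Slc16a1 (adjusted p = 0.0515), 0.66 for Rpia and -0.67 for Aldoc. Without MYD88_L265P replicate 1, Slc16a1 and Aldoc were called, beside 269 features higher and 146 lower in all. Without EV replicate 2, Slc16a1, Hk2 and Rpia were called higher and Aldoc lower, beside 827 features higher and 493 lower in all. EV replicate 2 had the lowest mean log2 signal of mitosis genes, where MYD88_L265P had 11.03 and 11.12, IKK_K171E 10.72 and 10.45, and EV 10.79 and 9.63, and its part in these counts was not tested. The calls of Aldoc and Rpia in IKK_K171E were both lost without any 1 of the 6 arrays, with adjusted p up to 0.236 for Aldoc and 0.207 for Rpia, both without IKK_K171E replicate 1, where limma called 0 features of the whole array in either direction.

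The 2 IKK_K171E arrays differed from each other in these genes. Replicate 1 lay above replicate 2 for 23 of the 29 genes, against 47.6% of all features, and by over 0.3 for 9 of them (31%), against 9.07% of all features. These 9 were Slc16a1, Hk2, Aldoa, Tpi1, Pgam1, Pkm, Ldha, Pgd and Tkt. The reverse gap of over 0.3 was seen in 0 of the 29 genes, and in 4.67% of all features. In MYD88_L265P, replicate 1 lay above replicate 2 by over 0.3 for 0 genes, against 3.73% of all features. Replicate 2 lay above replicate 1 by that much for 1 gene (3.45%), against 2.8%. In EV these counts were 3 genes (10.3%), against 7.18% of all features, and 1 gene (3.45%), against 5.87%. Ikbkb was also higher on IKK_K171E replicate 1 (11.35) than on replicate 2 (10.68), and its part in the gap was not tested. Against EV, the median log2 difference of the 29 genes was -0.03 without IKK_K171E replicate 1. Without replicate 2, with the spread taken from the other groups, Hk2 (log2 0.97, adjusted p = 0.0328) and Pgam1 (log2 0.76, adjusted p = 0.0455) were called higher than in EV. In that fit 418 features of the whole array were called higher and 72 lower, against 206 and 89 with all arrays.

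**Figure D4:**
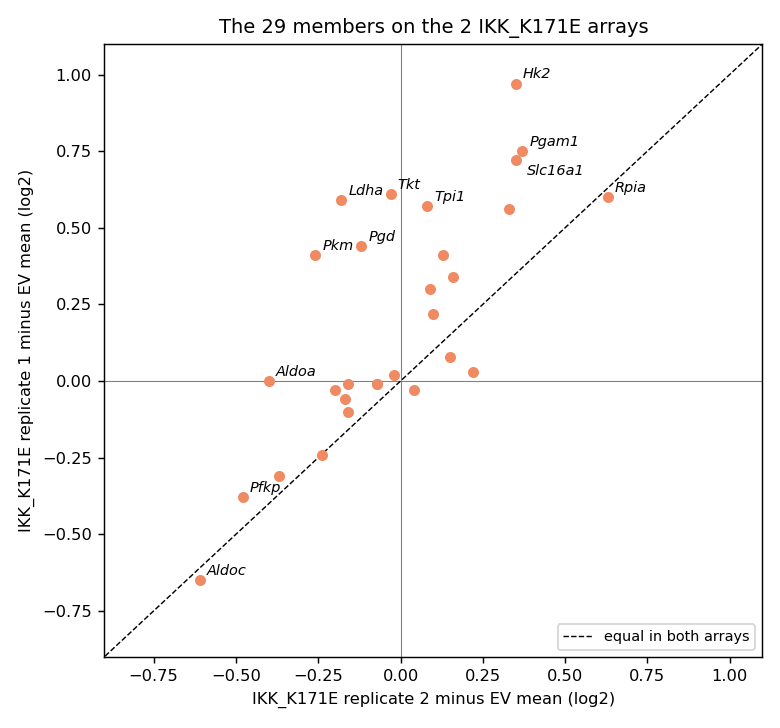
Log2 signal minus the EV mean of the 29 genes on IKK_K171E replicate 1 (vertical axis) and replicate 2 (horizontal axis), with a dashed line where the replicates are equal. Rpia and Aldoc lie near the line, and Ldha, Pkm and Tkt lie above 0 on replicate 1 and below 0 on replicate 2.

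Ratios between isoforms within an array showed unequal change in some pairs, and carry no information on which isoform was more abundant. The log2 ratio of Hk2 to Hk1 was 0.91 and 0.92 in MYD88_L265P, 0.50 and -0.06 in IKK_K171E, and -0.50 and -0.45 in EV. That of Slc16a1 to Slc16a3 was 1.17 and 1.21 in MYD88_L265P, 0.66 and 0.36 in IKK_K171E, and -0.09 and -0.02 in EV. Both ratios thus ran in the same order of groups, without overlap. That of Aldoa to Aldoc was 3.60 and 3.77 in MYD88_L265P, 3.51 and 3.08 in IKK_K171E, and 2.80 and 2.93 in EV. That of Pfkp to Pfkl was 2.65 and 2.63 in MYD88_L265P, 1.90 and 2.08 in IKK_K171E, and 2.96 and 2.41 in EV. Only IKK_K171E stood apart in this ratio. Between MYD88_L265P and EV, the ratios of Pfkp to Pfkm (difference 0.01) and Slc2a1 to Slc2a3 (difference 0.22) also overlapped. For 2 arrays against 2 the two-sided exact permutation test cannot give a p under 0.333, so none of the 10 ratios computed could pass a threshold.

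Beyond the 34 genes, lists of neighbouring pathways were counted in the same fit. For MYD88_L265P over EV, 9.32% of all features were called higher and 7.33% lower, with a median log2 fold change of -0.11. The tricarboxylic acid cycle had 5 of 15 measured genes higher and 0 lower there, with a median of 0.23. Its largest were Idh3a (0.98, adjusted p = 0.0132), Suclg2 (0.88, adjusted p = 0.0148) and Sdhb (0.74, adjusted p = 0.0216), which encode a dehydrogenase, a ligase and a respiratory chain subunit of the cycle. The pyruvate dehydrogenase list had 3 of 11 higher and 0 lower (median 0.13), and these were the complex's subunits Dld (0.79, adjusted p = 0.00742) and Dlat (0.66, adjusted p = 0.0116) and the inhibiting kinase Pdk3 (0.54, adjusted p = 0.0352). Other pentose phosphate and sugar branch enzymes had 6 of 16 higher and 0 lower (median 0.22). Among them were Prps1 (1.18, adjusted p = 0.0111) and Prps2 (0.62, adjusted p = 0.0288), which make the activated ribose for nucleotides. Pgm3 (0.87, adjusted p = 0.00556), which acts in amino sugar synthesis, was another.

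Other glycolytic and gluconeogenic enzymes had 3 of 17 higher and 3 lower in MYD88_L265P (median -0.10). The shares of all features, here and for the other carriers, were 9.32% higher and 7.33% lower. Eno3, the muscle enolase, fell by 0.85 (adjusted p = 0.0138), Pgam2, the muscle mutase, fell by 0.54 (adjusted p = 0.041), and Bpgm, the bisphosphoglycerate mutase, rose by 0.62 (adjusted p = 0.00761). Other carriers had 2 of 13 higher and 1 lower (median -0.24). Emb, a chaperone that brings monocarboxylate carriers to the membrane, rose by 1.61 (SE 0.35, adjusted p = 0.0265), and in IKK_K171E it differed from EV by 1.49 (adjusted p = 0.0922). Slc16a6 rose by 0.77 (adjusted p = 0.0208) and the glucose carrier Slc2a6 fell by 0.69 (adjusted p = 0.00782).

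Regulators of glucose use had 0 of 19 higher and 4 lower in MYD88_L265P (median -0.11). The shares of all features, for each list in this paragraph, were 9.32% higher and 7.33% lower. Txnip, an arrestin that lowers glucose uptake, fell by 1.38 in MYD88_L265P (adjusted p = 0.00161) and by 0.99 in IKK_K171E (adjusted p = 0.0084). Ppargc1a, a coactivator of mitochondrial genes, fell by 0.86 (adjusted p = 0.015) and Mlxip, a glucose-sensing factor, fell by 0.66 (adjusted p = 0.0448) in MYD88_L265P. Myc differed from EV by 0.69 in MYD88_L265P (SE 0.24, adjusted p = 0.0881) and Hif1a by -0.21 (adjusted p = 0.443), and neither was called. The EV arrays were 11.28 and 10.48 for Myc, and 11.21 and 10.57 for Hif1a. Hypoxia targets outside glycolysis had 2 of 15 higher and 1 lower (median -0.11), the higher ones being Vegfa (1.05, adjusted p = 0.0052) and Ero1a (0.76, adjusted p = 0.033). Mitosis genes had 2 of 13 higher and 0 lower (median 0.84), the highest median of the 8 lists. Their mean log2 signal was 11.03 and 11.12 in MYD88_L265P and 10.79 and 9.63 in EV. The size of that median thus depended on EV replicate 2, the lower EV array. The part of cell division in the values of the 29 genes was not tested.

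In IKK_K171E over EV, Txnip and the hypoxia target Adm, which was higher (0.82, adjusted p = 0.0361), were the only calls in the 8 neighbouring lists. These lists hold 11 to 19 measured genes each, and 0.956% of all features were called higher and 0.413% lower. Between MYD88_L265P and IKK_K171E, Bpgm was higher (0.62, adjusted p = 0.0201) and Adm lower (-0.81, adjusted p = 0.0267) in MYD88_L265P. No other gene of these lists was called there, where 0.873% of all features were called higher and 0.877% lower.

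**Figure D5:**
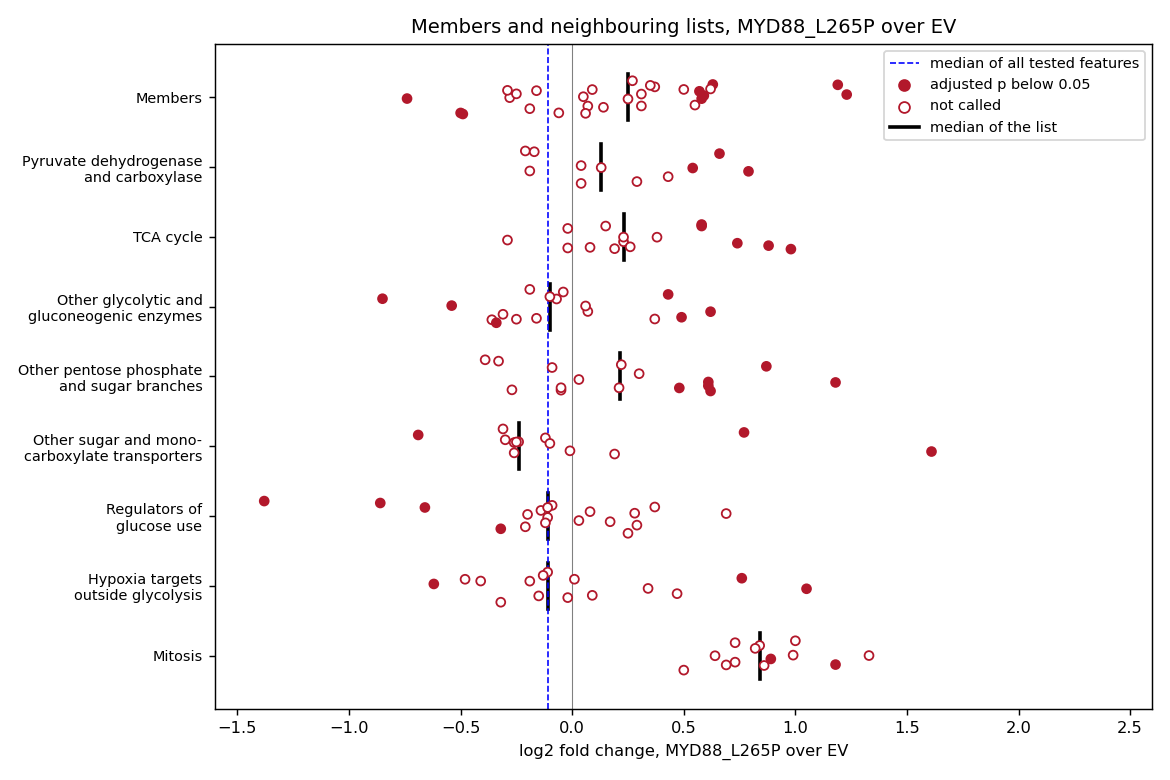
Log2 fold change of MYD88_L265P over EV for the 29 measured genes (members, top row) and the measured genes of 8 neighbouring lists, with filled points at an adjusted p below 0.05, a black bar at each list's median and a dashed line at the median of all features. The medians run from -0.24 in the other carriers to 0.84 in mitosis, and that of the 29 genes is 0.25. The mitosis genes had mean log2 signals of 10.79 and 9.63 on the EV arrays.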

How the data were processed

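TRIzol was used to obtain total RNA from the sorted B cells, and 1 biotin-labelled preparation per sample was read on 1 Affymetrix mouse gene array. The values are log2 signals per feature as deposited by the authors, made with oligo and limma, per the submitters' processing notes. The versions, background correction, normalization, summarization and genome build are not given in the sources used here. Replicates are numbered after the sample descriptions, whose numbers differ in part from those in the titles (EV_2 and EV_3, IKK_1 and IKK_3, MYD88_1 and MYD88_3). The replicate block thus joins EV_2 with IKK_1 and MYD88_1, and EV_3 with IKK_3 and MYD88_3. Of 24743 features, 21542 had exactly 1 gene symbol in the platform annotation, 1522 had several and 1679 had none. RefSeq identifiers matched 21472 features, and 0 symbols changed.

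Group means of all 6 arrays were fitted in 1 model with limma 3.58.1 in R 4.3.3, with moderated variances (3 residual and 4.17 prior degrees of freedom) and no scaling or filter. P-values are two-sided and Benjamini-Hochberg adjusted over the 21542 features. The fit was tested on simulated data of 21542 features. For MYD88_L265P against EV it called 89.6% of features changed 2-fold and 41.8% of those changed 1.5-fold. For IKK_K171E against EV the shares were 85.1% and 17.9%, and for MYD88_L265P against IKK_K171E 89.6% and 25.4%. The runs shared the same settings, with 67 features changed by each of these folds, so their shares differ only by the random draw. Far fewer features were changed in the simulation than were called in the data for MYD88_L265P against EV.

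The listed genes, their arms, the neighbouring lists and the isoform pairs were chosen with earlier results of these data known. All 34 genes are named, and of each other list at most the 3 called genes with the largest absolute log2 fold change, besides Myc, Hif1a and Txnip. Alternatives were the replicate block, a common median or quantile normalization, a variance trend, a filter on low signal, all features, only the arrays compared, the mean of a gene's features, and each array left out.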

Additional observations from a re-analysis of the deposited data

How the results depend on the processing

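The counts of called genes among the 29 were recomputed under 14 other settings, and no called gene changed sign. For MYD88_L265P against EV, 6 higher and 3 lower, the replicate block left both counts at 6 and 3, and leaving out 1 array gave 0 to 9 higher and 0 to 4 lower (142 to 2124 higher and 49 to 1430 lower over all features). A fit of only the groups compared also gave 9 higher. For IKK_K171E against EV, 1 higher and 1 lower, the replicate block gave 2 higher (Pgam1 and Rpia). Testing all features gave 0 and 0 (103 and 28 over all features), as did fitting only the groups compared (44 and 7), and leaving out 1 array gave 0 to 2 higher and 0 to 0 lower (0 to 418 and 0 to 95). For MYD88_L265P against IKK_K171E, 0 higher, the replicate block gave 2 higher (Slc16a1 and Pfkp) with adjusted p of 0.0314 and 0.0414, and 257 higher over all features, against 188 without it. Fitting only the groups compared gave 1 (Pfkp, 307 over all features), and leaving out 1 array gave 0 to 1 (8 to 307). The cause was not tested, except that leaving out arrays leaves fewer to estimate the spread. Same-numbered arrays had deviations correlated at 0.21, 0.10 and 0.14. With 2 numbers that differ in part from those in the titles, and no label of a shared batch, they were not taken as pairs. Over all features, MYD88_L265P against EV had 2007 higher and 1579 lower calls, against 2582 and 739 after shifting arrays to a common median. Without detection p-values, signal over background could not be judged.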

Other observations

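Gapdh, the triose phosphate dehydrogenase between Tpi1 and Pgk1, appears in 22 features that each name 4 to 8 genes, so their signal cannot be given to Gapdh alone. Their log2 signals ran from 12.69 to 13.44. MYD88_L265P over EV gave log2 differences from 0.13 to 0.22 (limma, adjusted p from 0.18 to 0.279 when all features were tested). Both MYD88_L265P arrays lay above both EV arrays in all 22, against 23.2% of the features with 1 gene symbol. IKK_K171E over EV gave 0.08 to 0.13 (adjusted p from 0.584 to 0.709), with both IKK_K171E arrays above both EV arrays in 16, against 17.6%. The 22 features hold 17 distinct sets of values, and features with shared probes are not separate measurements. Hk1 is also named by 15 features that name several genes, and their signal cannot be given to Hk1 alone. Their log2 signals ran from 12.24 to 13.49, against 8.61 to 8.93 for the feature that names only Hk1. MYD88_L265P over EV ran from -0.05 to -0.01 in these 15 features.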
